A study of Mus musculus with 12 samples.

Results

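3T3-L1 is a mouse fibroblast line whose cells, grown to confluence, differentiate into adipocytes after a hormonal stimulus. Of the 12 one-color arrays of the series, the 6 that hold RNA of induced cells are described here. These cells had been exposed for 6 h to 0.5 mM IBMX (isobutylmethylxanthine, which raises cyclic AMP), 1 µM dexamethasone (a glucocorticoid) and 5 µg/ml insulin in medium with fetal bovine serum. The lysates, which contained cycloheximide, were run on sucrose gradients, and 3 arrays were hybridized with the pool of gradient fractions 5 to 7 (non-polysomal) and 3 with the pool of fractions 9 to 11 (polysomal). All other gradient fractions were left out of both pools. The replicates were biological ones, and each of the 3 slides carried 1 array of either pool. The arrays were taken by their labelled time and fraction, and 41174 non-control probes entered. The 6 arrays of uninduced cells (0 h) in newborn bovine serum, divided in the same way, shared the fit and are used only to show where 6 h differed, so medium and hormones cannot be told apart in that comparison.

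An mRNA that is being translated carries several ribosomes and sediments far into the gradient, while an mRNA without ribosomes, or with few, stays nearer to the top. A ribosome occupies a fixed length of coding sequence, so a short coding sequence has room for few of them even when it is well translated. Nuclear and other noncoding RNAs are found near the top as a rule. Some mRNAs are known for regulated loading: those with a terminal oligopyrimidine (TOP) tract at the 5′ end follow growth signals, those with an iron-responsive element follow iron, and those with upstream reading frames follow stress.

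The measure is the difference of log2 signal between the polysomal and the non-polysomal pool, called the difference below. A difference of 1 is a 2-fold higher signal in the polysomal pool. Arrays were put on one scale by 10 spike-in transcripts that were added per amount of RNA, so a value compares equal amounts of RNA of the pools and is no share of the cell's copies of an mRNA. Fewer copies of an mRNA and fewer ribosomes on it cannot be told apart within one pool. A gene was represented by its probe of highest mean signal over the 6 arrays. A call required an adjusted p below 0.05 (limma, Benjamini-Hochberg over all probes) and a difference beyond 1 or -1.

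In induced cells, measured against the spike-ins, calls were mostly on the polysomal side. Of 41171 probes tested, 15374 (37.3%) were higher and 2645 (6.42%) were lower in polysomal RNA. Counted in genes, 8553 of 18216 (47%) were higher and 1039 (5.7%) were lower, and a difference beyond 4-fold was reached by 4170 genes on the high side and 402 on the low side. The median difference was 0.68 over probes and 0.97 over genes, and within the slides the probe median was 0.58, 0.87 and 0.62. The medians of the non-polysomal arrays lay between 4.11 and 4.23 and those of the polysomal arrays between 4.81 and 4.83, and the groups did not overlap (p = 0.1 by a two-sided exact permutation test, and 3 against 3 arrays cannot give less). Within a pool the arrays correlated at 0.989 to 0.991 over probes, and between the pools at 0.948 to 0.950.

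The common level depends on the scaling. Scaling to the 75th percentile instead of the spike-ins moved all genes alike, by -1.31, so that 5058 probes were higher and 9131 lower, and 35.6% instead of 85.3% of the calls were on the high side. Counted in genes, 16.6% were then called higher and 21.1% lower. The spike-ins themselves disagreed: the 5 dimmer ones differed between the pools by -0.97 to -0.78 and the 5 brighter ones by -0.25 to -0.02. The dimmer ones had mean log2 levels of 7.82 to 16.8 and the brighter ones of 18.3 to 19.1. Only 10 probes (0.024%) lay above the lowest of the brighter ones, so these cover almost none of the range of the genes. Gene lists are therefore set beside the median of all genes, and their counts of calls are given under both scalings. They are to be read against the shares of all genes, which were 47% higher and 5.7% lower with the spike-ins and 16.6% and 21.1% with the 75th percentile. The 12077 genes well above background on all 6 arrays had a median difference of 1.39, and the 3935 genes dim on every array had one of 0.53. Of those 12077 genes, 60.8% were called higher and 6.87% lower with the spike-ins. Lists whose members were nearly all well above background compare better with these shares.

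The 12 highest genes that were well above background on all 6 arrays (a call of the scanner software for each spot) included genes for enzymes, secreted and lysosomal proteins and an RNA-binding protein. Dnaaf5, an assembly factor of axonemal dynein, led with a difference of 4.38 ± 0.16 (SE). Hnrnpc, which packages nascent transcripts in the nucleus, read 9.27, 9.22 and 9.17 in the non-polysomal and 13.53, 13.42 and 13.55 in the polysomal replicates, a difference of 4.28 ± 0.08. Fdps, the farnesyl diphosphate synthase of the sterol pathway, read 9.05, 8.79 and 8.80 against 13.03, 13.04 and 13.19, which is 18.4-fold. No array of one pool overlapped the other for these 3 genes. Pigk, the catalytic subunit that attaches GPI anchors, followed with 4.23, then Pla2g7, a secreted phospholipase, with 4.16. The lysosomal hydrolases Arsb and Man2b2 had 4.15 and 4.13, the secreted Lgals3bp and Sod3 had 4.12 each, the proteoglycan Gpc6 4.10, the complement protease C1rb 4.10 and the mitochondrial elongation factor Gfm1 4.10. A second probe of Gpc6 gave 1.87, a second one of Arsb 3.17 and a second one of Dnaaf5 3.86.

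The 12 lowest genes were 3 noncoding RNAs and 9 protein-coding messages. Malat1, a nuclear noncoding RNA, read 13.30, 13.21 and 13.22 in the non-polysomal and 8.63, 8.40 and 8.77 in the polysomal pool, a difference of -4.64 ± 0.12 (SE), and its 4 probes lay between -4.90 and -4.45. The noncoding Dubr and Snhg3 had -4.06 and -3.80. Tmsb10, a small peptide that binds actin monomers, read 16.21, 16.20 and 16.29 against 11.90, 11.93 and 11.93, a difference of -4.31. The pools were again separate for both genes. Serf1 and the selenoprotein gene Selenow had -4.11 each, Ost4, the smallest subunit of the oligosaccharyltransferase, -3.94, Dph3, which serves diphthamide synthesis, -3.93, and Cops9, a subunit of the COP9 signalosome, -3.92. The copper chaperone gene Cox17 had -3.91, Tma7 -3.87 and Atp5e, the epsilon subunit of ATP synthase, -3.79. The adjusted p of these 24 genes was at most 2.51e-09. The lengths of the encoded proteins were not analysed here, and whether they go with the difference was not tested. Words such as short or small for a protein, here and below, are background and were not given for every low gene.

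**Figure D1:**
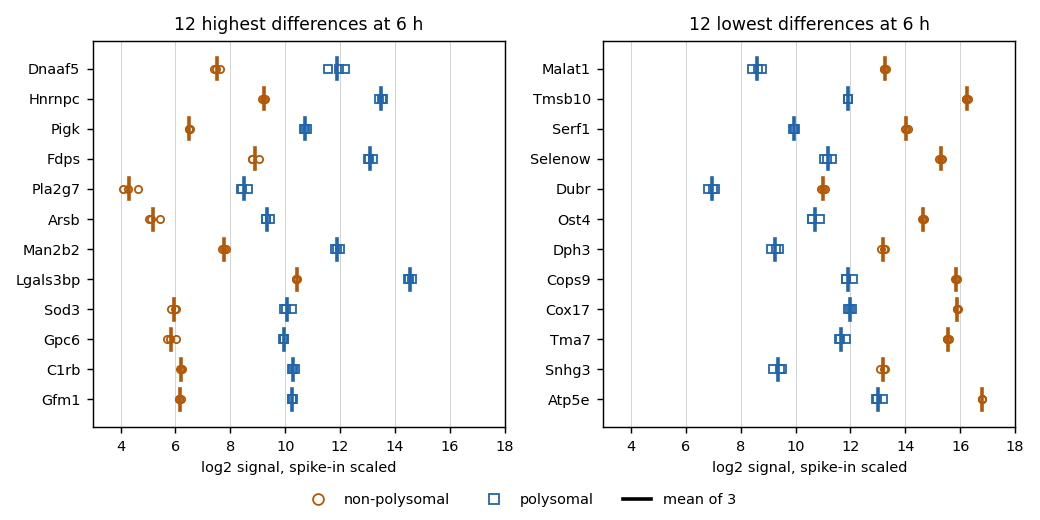
Spike-in scaled log2 signal (x axis) of the 12 genes with the highest and the 12 with the lowest difference at 6 h, 1 point per array and a bar at the mean of 3. Open circles are non-polysomal and squares polysomal arrays, and for each gene the 2 groups are separated, by 4.10 to 4.38 in the left panel.

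Of 37 gene lists, 26 had a median above that of all genes. Counted only over genes well above background on all 6 arrays, 20 lists lay above, and on that count the adipogenic transcription factors, clock, immediate-early, mitochondrial RP, other TOP, RNA polymerase II and Mediator, upstream reading frame and other-cell-marker lists changed sides. With quantile normalization the lists above were 20 too. The lists at the top held enzymes and subunits of large cytosolic assemblies: chaperonin CCT (median 3.08), glycolysis (2.92), the proteasome (2.91) and aminoacyl-tRNA synthetases (2.81). At the bottom stood long noncoding RNAs (-2.22), messages with an iron-responsive element (-0.25), replication-dependent histones (0.04) and polyamine synthesis (0.11).

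**Figure D2:**
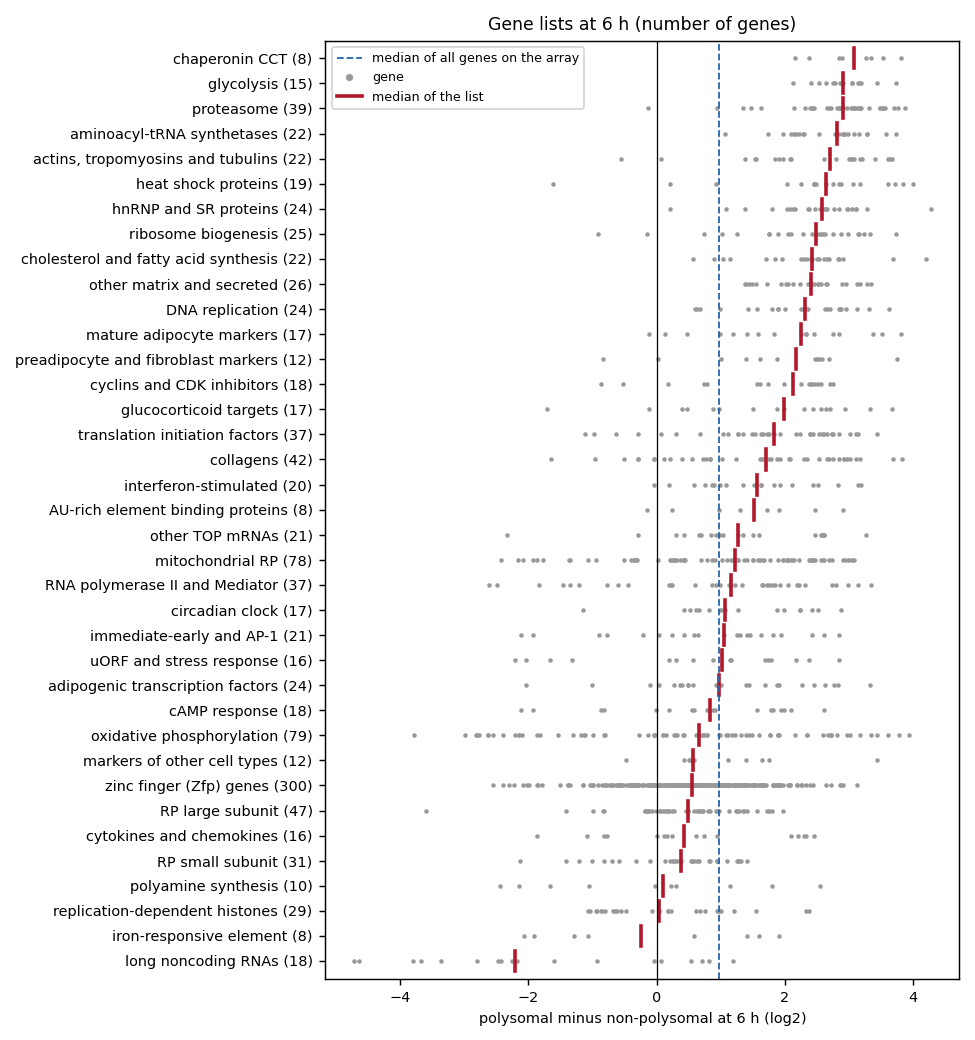
Difference at 6 h (x axis, log2) of every gene on the array in the 37 lists (grey points), with the median of the list (red bar), 0 (solid line) and the median of all genes, 0.97 (dashed line). The list medians run from 3.08 for the chaperonin to -2.22 for long noncoding RNAs.

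All 8 genes of chaperonin CCT, which folds actin and tubulin, were called higher, from Cct2 with 2.16 to Cct8 with 3.81. Cct8 read 10.29, 10.30 and 10.28 in the non-polysomal and 14.02, 14.08 and 14.21 in the polysomal replicates. All 15 glycolysis genes were called higher too, from the hexokinase gene Hk2 (2.13) to Pfkl (3.73), the liver type of the enzyme that commits glucose 6-phosphate carbons to glycolysis. Under 75th percentile scaling, 7 of the 8 and 14 of the 15 were still called higher. Of 39 proteasome genes, 37 were called higher and none lower, among them Psmd6 of the regulatory lid with 3.88 ± 0.07 (SE), and 33 were higher and 1 lower under 75th percentile scaling. The immunoproteasome subunit Psmb10 had 0.94, which turned to -0.37 under 75th percentile scaling.

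Aminoacyl-tRNA synthetases, which charge tRNAs, were called higher in 22 of 22, and in 13 with none lower under 75th percentile scaling. Their range ran from Farsb (1.07, or -0.24 under that scaling) to Rars (3.73). Of 22 actin, tropomyosin and tubulin genes, 20 were called higher and none lower (12 and 2 under 75th percentile scaling), with Tubb4b at 3.67. Actb, the common reference gene, was the lowest of that list. It read 10.35, 10.35 and 10.42 against 9.82, 9.90 and 9.74, a difference of -0.55 ± 0.07 (adjusted p = 3.72e-05), and only 1 probe stood for it.

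Heat shock proteins were called higher in 16 of 19 and lower in 1 (14 and 2 under 75th percentile scaling), and the extremes were Hspa1b, an inducible Hsp70, with 4.01 and Hspe1, the small mitochondrial co-chaperonin, with -1.62. The other probe of Hspa1b gave 1.31. Of hnRNP and SR proteins, which bind and splice pre-mRNA, 23 of 24 were called higher and none lower (16 and 1 under 75th percentile scaling), and the lowest was Srsf9 with 0.21 (adjusted p = 0.107), or -1.10 under 75th percentile scaling. Ribosome biogenesis was called higher in 22 of 25 and lower in none (14 and 2 under 75th percentile scaling), from Bop1, a factor of the large subunit's assembly, with 3.73 down to Nop10, a short protein of box H/ACA particles, with -0.91. Sterol and fatty acid synthesis was called higher in 20 of 22 and lower in none (13 and none under 75th percentile scaling). Its lowest gene was Insig1, a brake on sterol synthesis, with 0.57, which turned to -0.74 under 75th percentile scaling. DNA replication was called higher in 20 of 24 and lower in none (12 and none under 75th percentile scaling), with Pcna, the sliding clamp, at 3.62 and Pole, a replicative polymerase, at 0.59 (or -0.72).

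Oxidative phosphorylation was called higher in 32 and lower in 20 of 79 genes (16 and 33 under 75th percentile scaling), with a median of 0.66. Its shares were 40.5% higher and 25.3% lower, against 47% and 5.7% of all genes. All 79 were well above background on all 6 arrays, and of all such genes 60.8% were called higher and 6.87% lower. Its extremes were Ndufa9 of complex I, with 11.05, 11.03 and 11.01 in the non-polysomal and 14.93, 14.95 and 15.02 in the polysomal replicates, and Atp5e, with 16.79, 16.80 and 16.80 against 12.95, 12.91 and 13.17. The differences were 3.93 and -3.79, and the pools were separate in either case. With the values as the authors deposited them the median of this list lay above that of all genes.

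A division of complexes I and III into core and other subunits was made after these values were seen, so its numbers are a description. The 7 nuclear-encoded core subunits of complex I, which carry the redox centres, were all called higher (median 2.73; 5 under 75th percentile scaling), from Ndufv2 with 1.22 to Ndufv1 with 3.43. The 29 accessory subunits had a median of 0.41, with 7 called higher and 7 lower (2 and 13 under 75th percentile scaling). The lowest were Ndufc1 (-2.81), Ndufa1 (-2.63), Ndufa2 (-2.55) and Ndufv3 (-2.39), and another probe of Ndufv3 gave 3.03. In complex III the 4 core subunits Uqcrc1 (3.78), Uqcrc2 (3.34), Uqcrfs1 (3.02) and Cyc1 (2.34) were called higher under both scalings. The 5 supernumerary subunits had a median of -1.54, with 4 called lower (Uqcr10, Uqcrh, Uqcr11 and Uqcrq) and Uqcrb at 0.78. Of RNA polymerase II and Mediator, 21 of 37 (56.8%) were called higher and 6 (16.2%) lower, against 47% and 5.7% of all genes. All 37 were well above background on all 6 arrays, and of all such genes 60.8% were called higher and 6.87% lower. Under 75th percentile scaling 6 were higher and 12 lower. The list ran from Polr2b, the second largest polymerase subunit, with 3.35 to Polr2f, a small subunit shared by the 3 nuclear polymerases, with -2.62. Mitochondrial ribosomal proteins were called higher in 45 and lower in 9 of 78 (17 and 24 under 75th percentile scaling), from Mrpl39 (3.08) to Mrpl33 (-2.43).

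**Figure D3:**
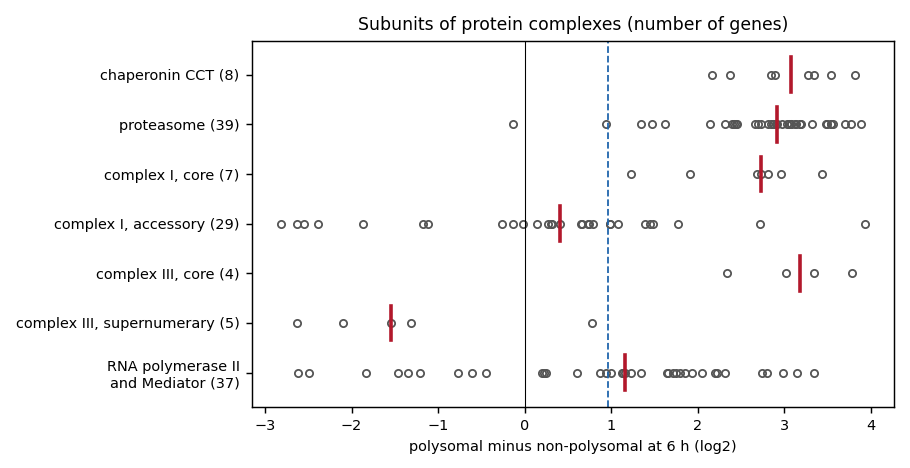
Difference at 6 h (x axis, log2) of the genes (open circles) of 7 groups of subunits, with the median of each (red bar), 0 (solid line) and the median of all genes (dashed line). The core subunits of complexes I and III lie above 1, and the accessory and supernumerary ones spread from -2.81 to 3.93.

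Cytosolic ribosomal protein (RP) messages, the best known TOP mRNAs, were still below the median of all genes at 6 h. Of 78 RP genes, 18 were called higher and 7 lower, against 47% and 5.7% of all genes. Their median was 0.49 (0.44, 0.47 and 0.53 within the slides). All 78 were well above background on all 6 arrays, and of all such genes 60.8% were called higher and 6.87% lower. Under 75th percentile scaling no RP gene was called higher and 35 were called lower, against 16.6% and 21.1% of all genes. The median was 0.49 for the 47 large subunit and 0.38 for the 31 small subunit genes, with 12 and 6 called higher and 3 and 4 lower. The highest of either subunit were Rpl14, with 10.89, 10.86 and 10.82 against 12.84, 12.79 and 12.83 (difference 1.97), and Rps9, with 14.56, 14.54 and 14.60 against 15.92, 15.97 and 16.04 (difference 1.41). The lowest were Rpl41, which encodes the shortest RP, with 18.37, 18.34 and 18.33 against 14.70, 14.73 and 14.80 (difference -3.60), and Rps29, another short one, with 17.33, 17.31 and 17.31 against 15.15, 15.10 and 15.31 (difference -2.13). Rpl27a had 0.72 ± 0.09, or -0.59 under 75th percentile scaling.

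The pyrimidine tract was looked for in RefSeq start windows (GRCm38.p6) as a run of at least 8 C or T letters that begins with C, on the transcribed strand, from 20 bases before to 40 after the annotated start. It was found in 38 of 58 RP genes with a window (65.5%), in 6 of 14 other TOP genes (42.9%) and in 20.2% of 14515 array genes with a window, and 17.2% of all windows of this length in the table held it. RP genes with a run had a median difference of 0.64 and those without one 0.23. Over all array genes with a window the order was the other way, with 0.92 and 0.99. A run could lie anywhere in the window, so it was not shown to stand at the 5′ end of the message. The 6 windows below show RP and other TOP messages of high and low difference, with the run in capitals and 5 bases on either side.
Rpl14, chr9:120571504-120571527, plus strand: gcgggCCCTCTCTCTTCTCgctga
Rpl15, chr14:18270969-18270995, minus strand: gaaagCCTTCTTCCTTTCCTCTggcgg
Rps27, chr3:90213637-90213655, minus strand: tttcgCTCCTTTCCggcgg
Eif3l, chr15:79075222-79075240, plus strand: ttccgCTCTCTCCCacggg
Rack1, chr11:48800349-48800374, plus strand: ggccgCTCTTTCTTTTTCTCCacagg
Eef1a1, chr9:78481715-78481734, minus strand: ctccgCCCTCTTCCCgaggg
Their differences were 1.97 for Rpl14, 1.75 for Rpl15, -1.22 for Rps27, 2.61 for Eif3l, 0.93 for Rack1 and 0.85 for Eef1a1. A run was thus held by messages both high and low at 6 h, and these windows were picked after the differences were seen.

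The other TOP mRNAs were called higher in 12 and lower in 1 of 21 (7 and 3 under 75th percentile scaling), with a median of 1.27. The highest was Cct4 of the chaperonin (3.27). The lowest was Pabpc1, the poly(A)-binding protein, with 16.97, 16.87 and 16.92 in the non-polysomal and 14.68, 14.51 and 14.58 in the polysomal replicates, a difference of -2.33 ± 0.08. Pabpc1 was the one member called lower, and its pools did not overlap. Impdh2, the rate-limiting enzyme of guanine nucleotide synthesis, read 10.49, 10.55 and 10.55 against 13.86, 13.91 and 13.92, a difference of 3.37 ± 0.07, and its probes agreed (3.37 and 3.49).

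Translation initiation factors were called higher in 30 and lower in 1 of 37 genes (15 and 6 under 75th percentile scaling), with a median of 1.82. Eif4a3, a helicase of the exon junction complex, was the highest with 3.44. Eif1b, one of the short factors that scan for the start codon, was the lowest with -1.12. Eif4b, which stimulates the Eif4a helicase, read 12.25, 12.18 and 12.27 against 11.95, 11.92 and 11.95. This difference of -0.30 ± 0.07 (adjusted p = 0.00414) was 0.08 when the offset was taken from the dimmer spike-ins, and the highest of the 3 probes of the gene gave 1.24.

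Of 24 adipogenic transcription factors, 12 were called higher and 2 lower (5 and 5 under 75th percentile scaling), with a median of 0.98. The share called higher was 50% and that called lower 8.33%, against 47% and 5.7% of all genes. Of the 24, 22 were well above background on all 6 arrays, and of all such genes 60.8% were called higher and 6.87% lower. The C/EBP factors that act early and late were on the high side: Cebpd had 3.34, with 13.99, 13.92 and 13.93 against 17.24, 17.23 and 17.39, Cebpa had 2.76, and Cebpb had 1.69, with 12.23, 12.14 and 12.17 against 13.87, 13.86 and 13.89. The pools were separate for all of them. Pparg, the nuclear receptor at the centre of the adipocyte program, had 0.92 ± 0.09, or -0.39 under 75th percentile scaling. The median was 0.97 over all genes and 1.39 over those well above background on all 6 arrays. The lowest was Ddit3 (CHOP), a C/EBP relative that inhibits the others, with 10.24, 10.15 and 10.25 against 8.04, 8.25 and 8.25, a difference of -2.03.

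Mature adipocyte markers were called higher in 13 of 17 and lower in none (8 and 1 under 75th percentile scaling), with Agt, angiotensinogen, the highest at 3.82. Plin1, the coat protein of the lipid droplet, did not pass the test (0.13, adjusted p = 0.371; -1.18 under 75th percentile scaling). Preadipocyte and fibroblast markers were called higher in 10 of 12 and lower in none (6 and 2 under 75th percentile scaling). The preadipocyte factor Dlk1, which inhibits adipogenesis, read 12.70, 12.53 and 12.55 against 16.29, 16.31 and 16.42 (difference 3.75), and Cd34 was the lowest with -0.84. Of 12 markers of other cell types, 3 (Des, Myod1 and Sox10) were well above background on all 6 arrays, and 7 were not so on any. Their summed linear signal, scaled by the spike-ins, ranged from 103 to 108 in the non-polysomal and from 274 to 298 in the polysomal arrays. Their part in the other results was not tested. Sox10 had 1.11, or -0.20 under 75th percentile scaling.

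Of 17 glucocorticoid targets, 11 were called higher and 1 lower (7 and 2 under 75th percentile scaling), with a median of 1.99. Fkbp5, a co-chaperone of the glucocorticoid receptor, read 9.98, 9.96 and 9.79 against 13.51, 13.56 and 13.68 (difference 3.67), and Tsc22d3 (GILZ), a glucocorticoid-induced leucine zipper protein, had 2.44. Both were separate between the pools. The lowest was Mt1, a short metallothionein, at 18.19, 18.14 and 18.20 against 16.39, 16.54 and 16.48 (difference -1.71). Of 18 genes of the cyclic AMP response, 7 were called higher and 2 lower (1 and 6 under 75th percentile scaling). The orphan receptors of this list went opposite ways: Nr4a1 read 14.85, 14.67 and 14.69 against 17.42, 17.28 and 17.34 (difference 2.61), and Nr4a2 read 10.85, 10.80 and 10.75 against 8.94, 8.83 and 8.86 (difference -1.92). Immediate-early and AP-1 genes were called higher in 11 (52.4%) and lower in 2 (9.52%) of 21, against 47% and 5.7% of all genes. Of the 21, 19 were well above background on all 6 arrays, and of all such genes 60.8% were called higher and 6.87% lower. Under 75th percentile scaling 3 of the 21 were called higher and 7 lower, and Ier5 had 2.85 with the spike-ins. Myc, the growth regulator, had 2.42, and its 3 probes lay between 2.42 and 2.98. Hsf1, the heat shock transcription factor, had 0.93, or -0.38 under 75th percentile scaling.

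Cyclins and CDK inhibitors were called higher in 13 of 18 and lower in none (8 and 3 under 75th percentile scaling), with Cdk2, which drives entry into S phase, at 2.76 and E2f1 at -0.87. Circadian clock genes were called higher in 9 (52.9%) and lower in 1 (5.88%) of 17, against 47% and 5.7% of all genes. Of the 17, 15 were well above background on all 6 arrays, and of all such genes 60.8% were called higher and 6.87% lower. Under 75th percentile scaling 3 clock genes were called higher and 1 lower. Cry1 had 2.88 and Rora had 0.42 (or -0.89 under 75th percentile scaling). Of 8 AU-rich element binding proteins, 5 were called higher and none lower (2 and 2 under 75th percentile scaling), with Elavl1 (HuR) at 2.91 and Khsrp at -0.16 (adjusted p = 0.526; 0.22 with the offset from the dimmer spike-ins). The probes of Elavl1 lay between -1.34 and 3.02 and those of Khsrp between -0.16 and 1.90, so the value of either gene depends on the probe. The interferon-stimulated list was called higher in 13 of 20 and lower in none (4 and 2 under 75th percentile scaling), with Psmb8 at 3.19. Ifit1, an RNA-binding antiviral protein, read 6.08, 6.22 and 6.25 against 6.07, 6.21 and 6.18, and the pools overlapped (difference -0.03, adjusted p = 0.782). Under other scalings its value ran from -1.34 to 0.70. Cytokines and chemokines were called higher in 5 (31.2%) and lower in 2 (12.5%) of 16, and in 2 and 8 under 75th percentile scaling, with Csf1 at 2.34 and Cxcl1 at -1.08.

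Of 8 messages with an iron-responsive element, 3 were called higher and 4 lower (none and 4 under 75th percentile scaling). Ferritin, the iron store, has the element in the 5′ leader, where its binding protein blocks translation. Fth1, its heavy chain, read 18.04, 18.01 and 18.05 in the non-polysomal and 16.92, 16.91 and 17.05 in the polysomal replicates (difference -1.07), and Ftl1, the light chain, had -1.29. Both were lower on every polysomal array. Epas1 (HIF-2α) and the iron exporter Slc40a1, also with a 5′ element, had -2.07 and -1.92. The transferrin receptor Tfrc and the iron transporter Slc11a2 carry the element in the 3′ part, where it affects stability, and they had 1.40 and 1.92. The phosphatase gene Cdc14a had 0.58. Slc40a1 and Cdc14a were named after their values were seen. Not every member is named here, so these values give no division of the list by the place of the element.

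Of 10 genes of polyamine metabolism, 3 were called higher and 4 lower (1 and 6 under 75th percentile scaling). Srm, the spermidine synthase, had 2.55 and Odc1, the ornithine decarboxylase that starts the pathway, had 1.15 (or -0.16 under 75th percentile scaling). Oaz1, the antizyme that inhibits ornithine decarboxylase and is made through a polyamine-dependent frameshift, read 15.71, 15.68 and 15.76 against 13.21, 13.26 and 13.34, a difference of -2.45. Upstream reading frames and stress response genes were called higher in 8 and lower in 4 of 16 (2 and 6 under 75th percentile scaling). Asns, the asparagine synthetase, which is a target of ATF4, was the highest with 2.84. Atf4, whose own translation is held back by upstream reading frames, was the lowest. It read 13.33, 13.36 and 13.27 against 11.04, 11.10 and 11.23, a difference of -2.20 ± 0.09.

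Noncoding RNAs were called lower more often than all genes. Of 219 genes annotated as lncRNA, 82 (37.4%) were called lower and 17 (7.76%) higher, against 5.7% and 47% of all genes, and 126 and none under 75th percentile scaling. Of the 80 that were well above background on all 6 arrays, 49 were lower and 8 higher, against 6.87% and 60.8% of all genes with such signal. In the list of 18 known long noncoding RNAs, 11 were called lower and 1 higher (14 and none under 75th percentile scaling), among them Neat1, the scaffold of paraspeckles, with 12.54, 12.50 and 12.42 against 9.65, 9.67 and 9.72 (difference -2.80). Tug1 was the highest of those well above background with 0.82 (or -0.49 under 75th percentile scaling). Its other probes gave 1.07 and 1.49, which met the limits of a call with the spike-ins. All 5 snoRNA genes were called lower, with a median of -3.69, but only 1 of the 5 was well above background on all 6 arrays. For Snora69 no polysomal array was well above background, and the signal was at least 9.61-fold lower there. Snora69 and most other snoRNAs lie in introns of host genes, and the probes were not checked against those.

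**Figure D4:**
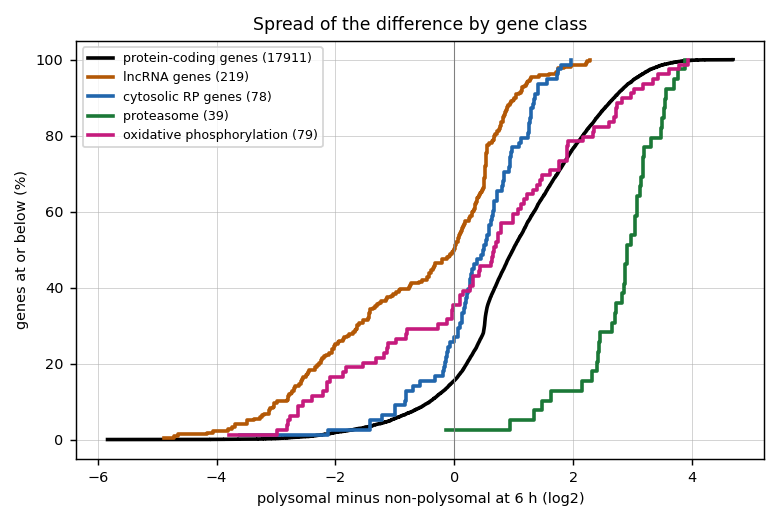
Share of genes (y axis, %) at or below a difference at 6 h (x axis, log2) for protein-coding genes, lncRNA genes, RP genes, the proteasome and oxidative phosphorylation, with the number of genes in brackets. The proteasome curve lies to the right of the protein-coding one and the lncRNA curve to its left, and the oxidative phosphorylation curve runs from -3.79 to 3.93.

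Replication-dependent histones, whose messages lack a poly(A) tail, were called higher in 4 and lower in 2 of 29 (2 and 18 under 75th percentile scaling), from H1f2 with 2.39 to H4c14 with -1.07. How well the labelling captured messages without a tail was not tested, so these values may not stand for all histone messages. Zinc finger genes of the Zfp series were called higher in 101 (33.7%) and lower in 17 of 300 (8 and 108 under 75th percentile scaling), with a median of 0.56. Zfp622, a factor of late ribosome assembly, had 3.13 and Zfp706, a short protein, had -2.55. Collagens were called higher in 25 and lower in 1 of 42 (14 and 9 under 75th percentile scaling), from Col23a1 (3.83) to Col4a6 (-1.65), and the 3 probes of Col4a6 reached up to 0.32. Of 26 other matrix and secreted proteins, all were called higher, from Tnc (1.38) to the proteoglycan Bgn (3.35), and 15 were called higher and none lower under 75th percentile scaling.

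Where a probe was well above background on all arrays of one pool and on none of the other, the difference is a bound. Ncstn, a subunit of gamma-secretase, was at least 15.9-fold, Etv5 at least 11.4-fold, Abhd3 at least 11.4-fold and Trem2 at least 10.4-fold higher in the polysomal pool. Their measured means differed by 4.09, 4.04, 3.73 and 4.07. A second probe of Etv5 gave 2.79 and a second one of Trem2 1.51, so the bounds of these genes hold for 1 probe. Over the other settings the values of the 4 genes went down to 1.68, 1.39, 1.34 and 1.31, and each gene failed the test in 1 setting. In the other direction Lalba was at least 11.1-fold, E030003E18Rik at least 7.46-fold and 1110020A21Rik at least 7.25-fold lower in the polysomal pool. With normexp background correction the sign of these 3 genes and of Snora69 turned, and none of them passed the test. A bound compares the bright pool with the dimmest signal that counts as well above background on each array of the other. Where the measured signal of an array was higher than that, the measured signal was used instead.

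Ghrl, which encodes ghrelin, read 10.30, 9.65 and 9.89 in the non-polysomal and 3.99, 3.89 and 4.45 in the polysomal replicates, a difference of -5.84 ± 0.36. It was well above background on 2 of the 3 polysomal arrays. Another probe of Ghrl gave -0.52, so the difference rests on 1 probe. Ube2k and Ucp2 had 0.82 (or -0.49 under 75th percentile scaling) and -0.75, and the probes of Ube2k reached down to -0.04 and those of Ucp2 up to 0.00.

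Against the spike-ins, the difference at 6 h was set beside that of uninduced cells. Its median over genes was 0.97 at 6 h and 0.43 at 0 h. The change of the difference from 0 h to 6 h had an adjusted p below 0.05 in 44.9% of genes (36% of probes), and it was above 1 in 14.2% and below -1 in 1.15% of them. The 14815 probes behind the share of probes depend on the processing: 7120 passed with the brighter and 27646 with the dimmer spike-ins, 33682 when a line was fitted to the spike-ins and 100 with normexp background correction. The RP median went from -1.28 at 0 h to 0.49 at 6 h, and 74 of 78 RP genes had a change above 1. The other TOP mRNAs went from a median of -0.11 to 1.27, with a change above 1 in 19 of 21, and the chaperonin in 6 of 8. Of the named genes, Impdh2 went from 0.77 to 3.37, Rpl27a from -2.10 to 0.72 and Bgn from 1.06 to 3.35. The long noncoding list had a median of -2.01 at 0 h and -2.22 at 6 h, and Tmsb10 and Atp5e had changes of -0.14 each that did not pass the test (adjusted p = 0.273 and 0.413). The brightest probe of Malat1 had a change of -0.18 (adjusted p = 0.401), while its other 3 probes had -1.25, -0.60 and -0.76, all past the test (adjusted p = 8.88e-05, 0.00309 and 0.00547). Atf4 went from -0.83 to -2.20 and Tfrc from 2.60 to 1.40.

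**Figure D5:**
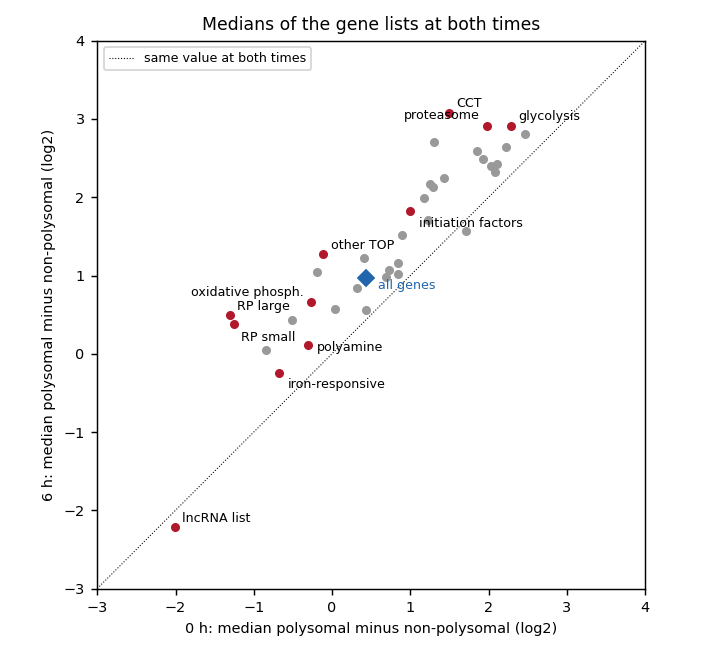
Median difference of each gene list at 0 h (x axis) and 6 h (y axis), both log2, with the median of all genes as a diamond and a dotted line where both times are equal. Both RP lists lie far above the line, and the long noncoding RNAs lie just below it.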

How the data were processed

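RNA of pooled gradient fractions was labelled with Cy3 and hybridized to Agilent 44k mouse arrays. The deposited scanner files, made with Feature Extraction 10.7.1.1, hold background-subtracted, detrended signal intensity per spot (gProcessedSignal) without scaling between arrays. The authors also deposited log2 values scaled by their spike-ins, used only as an alternative. Control and outlier spots were left out (94 to 145 outliers per 6 h array), spots of a probe were averaged, log2 was taken, and 1 offset per array was set from 10 spike-in transcripts. Of the probes, 55.7% to 58.7% per array were well above background, and the number of arrays limits the precision. Gene names came from RefSeq (26690 probes matched).

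All 12 arrays were fitted as 4 groups with limma 3.58.1 in R 4.3.3 and tested with lmFit and eBayes, with Benjamini-Hochberg adjustment over all probes. Scripts were tested on simulated data. The members, gene lists and tests were chosen with earlier results of these data known, so no list was tested as a set. Named were the 12 highest and 12 lowest genes well above background on all 6 arrays and called in the same direction on each slide, the 4 largest bounds in each direction, the highest and lowest such gene of each list, and a set of genes by name, of which Ccnd1 and Gas5 had no matched probe. Genes named outside this rule were chosen after their values were seen, and 1 gene of a list is not reported here by name. Alternatives covered scaling, background, filters, replicates, the slide as a block and the choice of probe.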

Additional observations from a re-analysis of the deposited data

Results flagged for a closer look

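Among 118 named genes, 80 had a difference at 6 h that was not the same as at 0 h (limma interaction contrast, adjusted p below 0.05 over all probes), 69 towards the polysomal and 11 towards the non-polysomal pool. Of all genes 44.9% passed the same test and their median change was 0.51, and many of the named genes were named for an extreme value at 6 h. Values are the change of the log2 difference from 0 h to 6 h.

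A change above 2 was found for Nr4a1 (2.85), Rpl27a (2.82), Rpl14 (2.70), Impdh2 (2.59), Cct4 (2.33), Fdps (2.30), Bgn (2.29), Tsc22d3 (2.10) and Rps9 (2.04). Between 1.5 and 2 lay H1f2 (1.89), Eif4b (1.88), Pigk (1.86), Cct2 (1.74), Dnaaf5 (1.70), Zfp622 (1.66), Hnrnpc (1.61), Etv5 (1.61), Abhd3 (1.58), Man2b2 (1.56), Cebpb (1.54) and Arsb (1.54). Between 1 and 1.5 lay Trem2 (1.44), Sod3 (1.41), Psmb8 (1.40), Cdk2 (1.36), Khsrp (1.34), Dlk1 (1.32), Gpc6 (1.30), Cebpd (1.26), Psmd6 (1.21), Cct8 (1.19), Fkbp5 (1.17), Asns (1.15), Mt1 (1.12), Rps29 (1.11), Ndufa9 (1.10), Cebpa (1.05), Bop1 (1.05) and Lgals3bp (1.03). Between 0.75 and 1 lay Srm (0.99), Pabpc1 (0.95), Odc1 (0.94), Cry1 (0.91), Myc (0.89), Elavl1 (0.89), Fth1 (0.86), Col23a1 (0.84), Mrpl39 (0.84), Tubb4b (0.83), Slc11a2 (0.78), Ftl1 (0.76) and Agt (0.76). The other changes towards the polysomal pool were those of Des (0.74), Nr4a2 (0.74), Tug1 (0.73), Csf1 (0.69), H4c14 (0.67), Pcna (0.67), Ier5 (0.66), Srsf9 (0.62), Insig1 (0.62), Cxcl1 (0.58), Eif1b (0.57), Gfm1 (0.50), Nop10 (0.47), Oaz1 (0.44), C1rb (0.44), Hsf1 (0.43) and Hspa1b (0.37). Changes towards the non-polysomal pool were those of Polr2f (-0.31), Plin1 (-0.71), Cops9 (-0.76), Actb (-0.82), E2f1 (-0.84), Tfrc (-1.20), Atf4 (-1.37), Pole (-1.39), Lalba (-2.26), Ifit1 (-2.38) and Ghrl (-4.26). Values are those of the brightest probe, and other probes can differ. The sign was opposite on another probe of Gpc6 (-0.37), Elavl1 (-0.47), Hspa1b (-1.04), Trem2 (-0.31) and Col23a1 (-0.08, and 0.11 on the remaining one). The size differed for Ghrl (-0.62), Khsrp (0.49), Arsb (0.69), Cdk2 (2.34), Eif4b (up to 2.94), Myc (up to 2.19), Tug1 (up to 1.73), Hnrnpc (1.02) and E2f1 (-1.41), among others. The genes named by bounds were dim in 1 pool.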

How the results depend on the processing

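The counts of probes higher and lower, their median difference, the probes that differed from 0 h and the lists above the all-gene median were 15374, 2645, 0.68, 14815 and 26. With 75th percentile scaling 5058 were higher and 9131 lower and the median was -0.63. Quantile normalization gave 6422, 5583 and 0.021, and a straight line through the spike-ins 31259, 1521 and 1.65, with 33682 that differed from 0 h. The brighter spike-ins gave a median of 0.30 and 7120 that differed, and the dimmer ones 1.06 and 27646. The authors' log2 values gave 1408 lower and 30931 that differed. Normexp, run on median spot signal in place of mean signal, gave 9205, 671, 2.27, 100 and 15. Without spots of non-uniform background, an alternative chosen after seeing the data, it gave 1202 lower, a median of 0.48 and 33960 that differed. The median was 1.26 over probes well above background in a 6 h group and 1.30 over those above it on all 6 arrays. Without a size limit 24680 were higher and 4111 lower. The methods' one-sided test of means over the 6 array medians left the median at 0.68 and gave p = 0.000841, where the exact permutation test cannot go below 0.1. The cause of these moves was not tested.

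Leaving out arrays or slides gave 14811 to 15454 higher, 2549 to 2679 lower, a median of 0.64 to 0.71, 11460 to 14365 that differed from 0 h and 24 to 26 lists above. The replicate numbers were not shown to pair the arrays (correlations of deviations 0.12, 0.01 and 0.07, and 4 of 6 arrays correlated best with their own number). With the replicate block 15389 were higher, 2648 lower and 14140 differed from 0 h.

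Of 118 named genes, 95 kept their direction in every setting run. The sign turned with 75th percentile scaling for Farsb (-0.24), Hsf1 (-0.38), Insig1 (-0.74), Odc1 (-0.16), Plin1 (-1.18), Pole (-0.72), Pparg (-0.39), Psmb10 (-0.37), Rora (-0.89), Rpl27a (-0.59), Sox10 (-0.20), Srsf9 (-1.10), Tug1 (-0.49) and Ube2k (-0.49). It turned with quantile normalization for Farsb (-0.25), Hsf1 (-0.46), Insig1 (-0.55), Plin1 (-0.65), Pole (-0.55), Pparg (-0.47), Psmb10 (-0.30), Rora (-0.76), Rpl27a (-0.35), Srsf9 (-0.89), Tug1 (-0.56) and Ube2k (-0.34). It turned with the straight line for Ifit1 (0.70). The sign turned with the brighter spike-ins for Plin1 (-0.25) and Srsf9 (-0.17). It turned with the dimmer spike-ins for Eif4b (0.082), Ifit1 (0.35) and Khsrp (0.22). It turned with the authors' log2 values for Ifit1 (0.13). The sign turned with normexp for 1110020A21Rik (1.18), Cd34 (1.19), E030003E18Rik (1.08), E2f1 (0.25), Ifit1 (1.54), Lalba (0.65) and Snora69 (0.77). The sign turned with normexp without spots of non-uniform background for Ifit1 (0.20). Leaving out an array or slide gave -0.28 to 0.093 for Khsrp, and -0.084 to 0.0052 for Ifit1, and both changed sign: Khsrp was above 0 without slide 1 or its non-polysomal array, and Ifit1 without the non-polysomal array of slide 3 or the polysomal array of slide 1. None of Ifit1, Khsrp, Plin1 and Srsf9 passed the test at the reported setting. Protein length was not run, since no protein table was given, and the trend in the prior variance used only probes with complete values. Limits: the values compare equal RNA amounts, spike-ins disagreed with brightness, and 3 arrays per pool bound the precision.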
